A study of Mus musculus with 2 samples.

Results

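The genes described here form the relay that carries the insulin signal from phosphatidylinositol 3-kinase (PI3K) through AKT to the mTOR kinase, together with the AMP-activated kinase (AMPK) that opposes it when energy is short. They were taken by symbol from a written list of 37 genes. No rule on their values was used, but the list was chosen with earlier results of these data known. All 37 had a row among the 23282 rows of each deposited table. RNA came from 3T3-L1 cells, an established mouse line of fibroblasts able to become fat cells, and the labels describe the cells as adipocytes. One sample was treated with a control siRNA and the other with an siRNA against Pink1, which encodes a mitochondrial kinase, and the series title concerns bone loss with age. Each group has 1 library, made from total RNA with a kit that reads the 3′ ends of transcripts. The dose, the time after treatment and the stage of differentiation are not given in the sources used here.

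Insulin-bound receptors recruit PI3K, whose lipid product brings PDK1 and AKT to the plasma membrane, where PDK1 and the mTOR complex mTORC2 phosphorylate AKT. AKT then restrains GSK3, the FOXO transcription factors and the TBC1D4 brake on glucose transporter traffic, and it relieves the block that the TSC complex places on RHEB, the small GTPase that switches on mTORC1. AMPK, activated by the kinase LKB1 when ATP falls, strengthens the TSC block and slows lipid synthesis. In fat cells this relay drives glucose uptake and lipid storage. Most of its control is by phosphorylation, which these libraries do not read: every value below is a level of RNA.

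The control library held 13803174 counts and the Pink1 siRNA library 14214768, of which the 37 genes took 0.277% and 0.254%. Levels are in CPM, counts scaled to a common library total, and ratios are Pink1 siRNA over control siRNA. With 1 library in each group there is no replicate error and no p-value, so every difference compares these 2 libraries and not the conditions. Intervals given with a ratio are 95% counting intervals, which cover counting error only. The libraries differ by more than counting error at every level of expression, so a second interval was computed, widened by the excess spread of all genes of similar level. Pink1 itself had 511 counts in the control and 351 in the Pink1 siRNA library, a ratio of 0.687 (0.598 to 0.788). Its widened interval of 0.445 to 1.05 included 1, and 23 of 583 genes of similar level were as low. The adipocyte genes Adipoq (4337 and 4309 counts) and Fabp4 (14673 and 16749) were present, as were the preadipocyte genes Dlk1 (116628 and 130666) and Pdgfra (4327 and 4733). Of 12 adipocyte markers 5 had a higher and 7 a lower level in the Pink1 siRNA library, where Plin1, the lipid droplet coat gene, had 167 counts against 275 (ratio 0.607, widened 0.343 to 1.05), and the list summed to 2777 CPM in the control and 2975 CPM in the Pink1 siRNA library. Of 9 preadipocyte and fibroblast markers 7 were higher and 2 lower, with a sum of 29227 and 30481 CPM. The widened interval lay above 1 for 3, Thy1 (ratio 1.47), Col1a1 (1.15) and Dlk1 (1.12). Among 583 genes of similar level, however, 156 were as high as Col1a1 and 195 as high as Dlk1, against 8 for Thy1. The part of these marker differences in the values below was not tested. Of 7 macrophage and leukocyte markers 2 had 40 or more counts in both libraries together, and of 5 endothelial markers 0 did. In a bulk culture, fewer cells of a kind and less RNA in each cell cannot be told apart.

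As a group the relay was close to level between the libraries. Of the 37 genes, 34 had at least 40 counts in both libraries together and are called measured. None of the 34 was at least 2-fold different with a counting interval that left out 1. Of all 11660 measured genes 4.02% were (1.63% higher and 2.39% lower), and 0 of 34 is near that share. The largest difference was in Phlpp1, a phosphatase gene, at 1.58-fold. The median log2 ratio of the 34 genes was -0.04, against 0.00 over all measured genes. Their interquartile range ran from -0.25 to 0.05, and that of all measured genes from -0.21 to 0.21. Neither the share nor the range of all genes was matched for level, and genes of low level spread more widely. The range was -0.79 to 0.45 in the lowest twentieth of mean level and -0.08 to 0.21 in the highest.

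Small differences were more often towards lower levels. A log2 ratio below 0 was found in 23 of the 34 genes (48.9% of all measured genes) and above 0 in 11 (51.1%). The counting interval lay below 1 for 13 genes (24.9% of all) and above 1 for 5 (26.2% of all). Here and below, such shares are not matched for level, and more counts narrow the interval. That of Pik3r1 left out 1 at a ratio of 0.895, where 69 of 583 genes of similar level were as low, against 5 for Gsk3b. At 1.5-fold with a counting interval that left out 1, 1 gene, Phlpp1, was lower (6.64% of all) and 0 were higher (5.43% of all). The widened interval lay above 1 for 1 gene, Tsc2 (2.09% of all measured genes), below 1 for 0 (2.01%), and included 1 for 33.

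**Figure D1:**
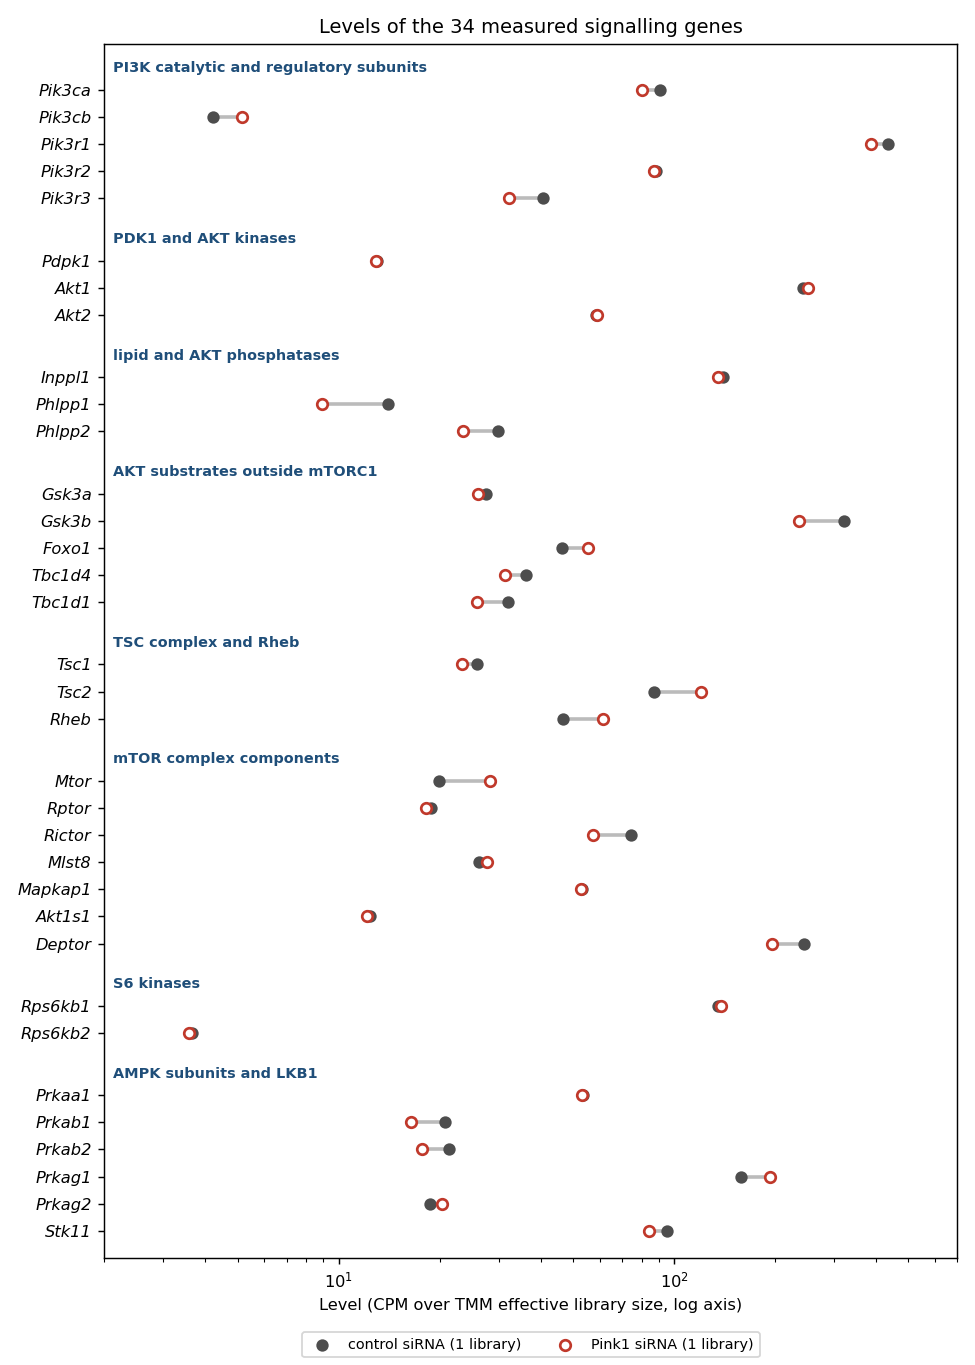
Levels of the 34 measured genes in CPM (log axis), grouped by role, with 1 filled point for the control siRNA library and 1 open point for the Pink1 siRNA library. The points of Akt2, Pdpk1, Mapkap1 and Prkaa1 lie on top of each other, and the widest gap is in Phlpp1 (14.1 and 8.92 CPM).

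**Figure D2:**
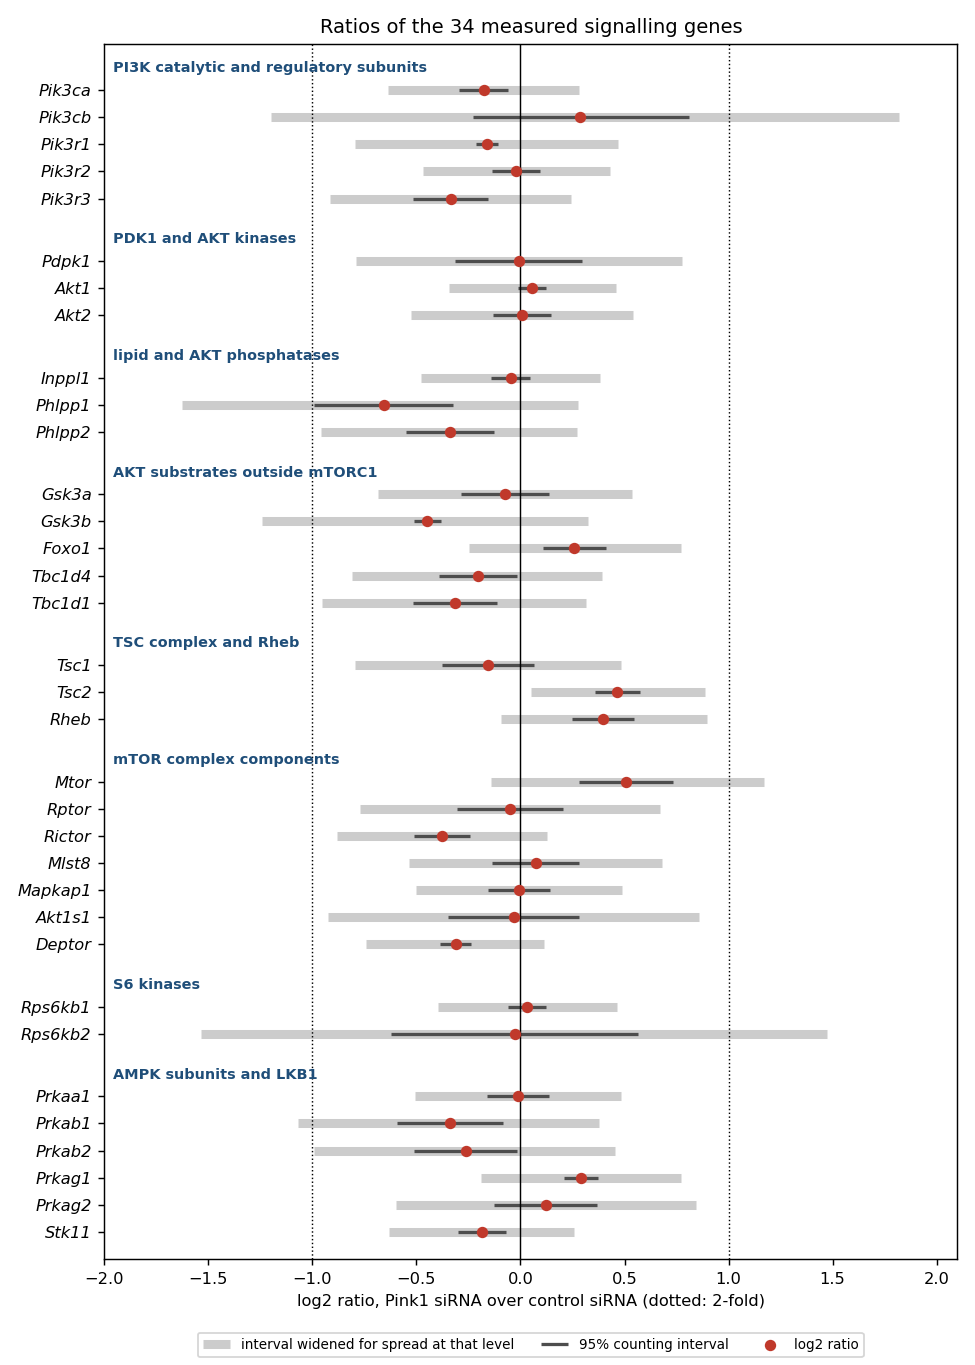
Log2 ratio (Pink1 siRNA over control siRNA) of the same 34 genes, with the 95% counting interval as a dark line and the widened interval as a grey bar; dotted lines mark 2-fold. All points lie between the dotted lines, and the grey bar of Tsc2 is the one that leaves out 0.

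The PI3K enzyme is a dimer of a catalytic and a regulatory subunit, and 4 of its 5 listed genes had a ratio below 1. Pik3ca, the catalytic subunit p110 alpha that carries most insulin signalling, had 1269 and 1123 counts (90.6 and 80.2 CPM), a ratio of 0.885 (0.816 to 0.960). The other catalytic gene, Pik3cb, was read only 59 and 72 times, and its ratio of 1.22 had an interval of 0.853 to 1.75. Pik3ca thus supplied 95.6% of the pair's counts in the control (interval 94.3 to 96.6) and 94.0% in the Pink1 siRNA library (92.5 to 95.3).

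Among the regulatory subunits, which hold the enzyme inactive until it docks on phosphorylated IRS proteins, Pik3r1 had 6073 and 5433 counts (434 and 388 CPM), the highest counts of any gene in the list. Its ratio was 0.895 (0.862 to 0.928). Pik3r3 had 570 and 452 counts and a ratio of 0.793 (0.699 to 0.899), the lowest of the 5, and 64 of 583 genes at like expression were at or below it. Pik3r2 was level at 1238 and 1221 counts. Summed over the 3 regulatory genes the ratio was 0.902 (0.873 to 0.931), and over both catalytic genes 0.900 (0.832 to 0.974), so the sums of the subunit classes differed by a like amount.

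The kinases next in the relay were even between the libraries. Pdpk1, the gene of PDK1, had 182 and 181 counts. Akt2, the AKT form most tied to insulin-driven glucose uptake, had 819 and 823 counts, with an interval of the ratio from 0.911 to 1.11. Akt1 had 3388 and 3521 counts (242 and 251 CPM), a ratio of 1.04 (0.991 to 1.09). Akt1 gave 80.5% of the counts of the pair in the control and 81.1% in the Pink1 siRNA library, with overlapping intervals.

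The PHLPP phosphatase genes were lower in the Pink1 siRNA library and the SHIP2 gene was level. Phlpp1 and Phlpp2 encode enzymes that remove the phosphate mTORC2 places on AKT. Phlpp1 had 197 counts in the control and 125 in the Pink1 siRNA library, a ratio of 0.635 (0.503 to 0.798) and a log2 ratio of -0.65. Phlpp2 had 417 and 330 counts, a ratio of 0.791 (0.683 to 0.917). Both genes were lower beyond counting error, and summed they had 614 and 455 counts (ratio 0.741, interval 0.655 to 0.838).

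Genes at like expression spread beyond counting error: 55 of 583 were as low as Phlpp1, and 76 of 583 as low as Phlpp2. The widened interval was 0.324 to 1.21 for Phlpp1 and 0.515 to 1.21 for Phlpp2. Inppl1, the lipid phosphatase SHIP2, was level at 1959 and 1895 counts (ratio 0.967, 0.908 to 1.03). Its blood-cell relative Inpp5d, or SHIP1, had 0 and 3 counts. Since 0 counts are compatible with as many as 3 (0.214 CPM), no difference was detectable for Inpp5d at this depth.

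Among the proteins that AKT phosphorylates outside the mTORC1 branch, the largest difference was in Gsk3b, which encodes a kinase that holds glycogen synthase inactive. Gsk3b had 4497 counts in the control and 3296 in the Pink1 siRNA library (321 and 235 CPM), a ratio of 0.733 (0.701 to 0.767). In its twentieth of expression, the highest, 5 of 583 genes were that low, Gsk3b included. Its widened interval of 0.423 to 1.25 included 1, with an excess spread of 128 times the binomial variance over that twentieth. Gsk3a, the other GSK3 gene, was nearer level at 384 and 365 counts (ratio 0.951, 0.821 to 1.10). The Gsk3a share of the pair was 7.87% (7.13 to 8.66) in the control and 9.97% (9.02 to 11.0) in the Pink1 siRNA library, and these intervals did not overlap.

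Tbc1d4 (also named AS160) and Tbc1d1 keep glucose transporter vesicles inside the cell until AKT or AMPK phosphorylates them. Tbc1d4 had 506 and 439 counts, a ratio of 0.868 (0.762 to 0.988). Tbc1d1 had 449 and 361 counts, a ratio of 0.804 (0.698 to 0.926). The Tbc1d4 share of the pair was 53.0% and 54.9%, with intervals that overlapped. Slc2a4, the insulin-regulated transporter they control, was read 49 and 25 times.

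The FOXO transcription factors, which AKT excludes from the nucleus, were read at very different depths. Foxo1 had 647 and 774 counts (46.2 and 55.3 CPM), a ratio of 1.20 (1.08 to 1.33), while Foxo3 had 10 and 4 counts and was not measured. Foxo4, which is no member of the list and was added after its values were seen, had 208 and 280 counts, a ratio of 1.35 (1.12 to 1.62). A counting interval above 1 was found in 26.2% of all measured genes. The widened intervals, 0.842 to 1.71 for Foxo1 and 0.804 to 2.28 for Foxo4, included 1. Among genes of the level of Foxo1, 99 of 583 had a ratio as high.

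Tsc2 and Rheb held the highest ratios of the list together with Mtor. Tsc2 encodes tuberin, the part of the complex that switches RHEB off. It had 1219 counts in the control and 1684 in the Pink1 siRNA library (87.0 and 120.2 CPM), a ratio of 1.38 (1.28 to 1.49). Its widened interval was 1.04 to 1.85, and 20 of 583 genes at like expression were as high. Tsc1, which encodes the partner protein hamartin, had 363 and 326 counts, a ratio of 0.898 with an interval (0.771 to 1.05) that included 1. Of 583 genes of similar level, 172 were as low as Tsc1. The Tsc1 share of the pair was 22.9% (20.9 to 25.1) in the control and 16.2% (14.6 to 17.9) in the Pink1 siRNA library.

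The reads of Tsc2 cannot be assigned with confidence. Tsc2 lies on the minus strand of chromosome 17 from 24595816 to 24632630 (mm10, GENCODE M21), and Pkd1, the polycystin 1 gene, lies on the plus strand from 24549834 to 24596508. Their 3′ ends overlap tail to tail over 693 bases of exon, where a 3′ library reads. All 451 words of 50 bases in the last 500 bases of the longest Tsc2 transcript occur in Pkd1 transcripts, read on the opposite strand. Pkd1 had 1012 and 1553 counts, a ratio of 1.53 (1.42 to 1.66), which was higher than that of Tsc2. The summed counts of both genes were 2231 and 3237, a ratio of 1.45 (1.37 to 1.53). Whether strand was used in counting is not given in the sources used here, so the higher value belongs to the Tsc2 and Pkd1 pair and cannot be told apart between its genes.

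Rheb, the GTPase that the TSC complex inactivates, had 654 and 861 counts (46.7 and 61.5 CPM), a ratio of 1.32 (1.19 to 1.46). In its level group 31 of 583 genes were as high, and its widened interval of 0.936 to 1.86 included 1. Other transcripts share at most 9 of the 451 such words at the end of Rheb, and its locus overlaps no other gene with 40 or more counts.

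Mtor, the kinase at the core of both mTOR complexes, had 278 counts in the control and 395 in the Pink1 siRNA library (19.8 and 28.2 CPM). Its ratio was 1.42 (1.22 to 1.66), the highest of the 34 genes, with 38 of 583 genes of similar level as high and a widened interval of 0.906 to 2.25. Angptl7, which lies within an Mtor intron, had 24 and 21 counts. The scaffold genes that define the complexes did not share that direction. Rptor (mTORC1) was level at 264 and 255 counts, a ratio of 0.966 (0.810 to 1.15). Rictor (mTORC2) had 1043 and 804 counts (74.5 and 57.4 CPM), a ratio of 0.771 (0.702 to 0.846), with 40 of 583 genes as low.

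Of the counts of Rptor and Rictor together, Rptor gave 20.2% (18.1 to 22.5) in the control and 24.1% (21.5 to 26.8) in the Pink1 siRNA library, with intervals that overlapped. Deptor, an inhibitor that binds both complexes, had 3413 and 2749 counts (244 and 196 CPM), a ratio of 0.806 (0.766 to 0.847). In all, 21 of 583 genes of its level were as low, and the widened interval of 0.598 to 1.08 included 1. The remaining components were level: Mlst8, shared by both complexes, had 368 and 387 counts, the mTORC2 subunit gene Mapkap1 had 743 and 739, and Akt1s1, which encodes the mTORC1 inhibitor PRAS40, had 174 and 170. By the counting interval the complexes thus had 1 gene higher (26.2% of all measured genes), 2 lower (24.9% of all) and 4 level.

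The S6 kinases, which mTORC1 activates to promote translation, showed no difference beyond counting error. Rps6kb1 had 1897 and 1940 counts, a ratio of 1.02 (0.960 to 1.09). Rps6kb2 had 51 and 50 counts, a ratio of 0.980 with an interval of 0.650 to 1.48 that allows differences of either sign. Rps6kb1 gave 97.4% and 97.5% of the counts of the pair.

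AMPK is a trimer of a catalytic alpha, a scaffolding beta and a nucleotide-sensing gamma subunit, and its subunit classes differed in direction. The alpha class consisted of Prkaa1, level at 750 and 743 counts (ratio 0.991, 0.894 to 1.10), since Prkaa2 had 0 and 1 counts. Both beta genes were lower. Prkab1 had 291 and 230 counts, a ratio of 0.790 (0.662 to 0.943), and Prkab2 had 299 and 249, a ratio of 0.833 (0.701 to 0.989). The beta counts summed to 590 and 479, a ratio of 0.812 (0.718 to 0.918), and their split between the genes was near even in both libraries.

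The gamma class was higher in sum. Prkag1 had 2214 and 2707 counts (158 and 193 CPM), a ratio of 1.22 (1.16 to 1.29), and Prkag2 had 262 and 285, a ratio of 1.09 (0.917 to 1.29). Gamma counts summed to 2476 and 2992, a ratio of 1.21 (1.15 to 1.28), so the interval of the gamma sum lay above 1 and that of the beta sum below it. For single genes of like level such ratios were common: 70 of 583 were as high as Prkag1, 121 as low as Prkab1 and 124 as low as Prkab2. All 5 measured subunit genes had widened intervals that included 1. Stk11, the gene of LKB1, had 1339 and 1177 counts, a ratio of 0.879 (0.812 to 0.951). Its 3′ end overlaps the gene listed as Dos (RefSeq name Cbarp) over 232 bases, and Dos had 1138 and 1037 counts.

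Over the 14 pairs of related genes set against each other, the shares in both libraries had intervals that did not overlap for 2, Gsk3a with Gsk3b and Tsc1 with Tsc2. For the other 12 these intervals overlapped, which is no test of the difference between the libraries. The share intervals cover counting error only, and no such count was made over other gene pairs. For single genes, the counting interval of the ratio lay above 1 in 26.2% and below 1 in 24.9% of all measured genes. The counts of Tsc2 also cannot be assigned with confidence. Exons of 8 members overlap those of another gene with 40 or more counts, and for 6 of them within the last 1000 bases, namely Gsk3a, Inppl1, Rps6kb1, Rps6kb2, Stk11 and Tsc2. The overlap at Inppl1 is 95 bases with Phox2a, listed at 1132 and 1247 counts, and at Rps6kb1 155 bases with Rnft1 (250 and 197 counts). Counts of these members are uncertain to that extent.

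**Figure D3:**
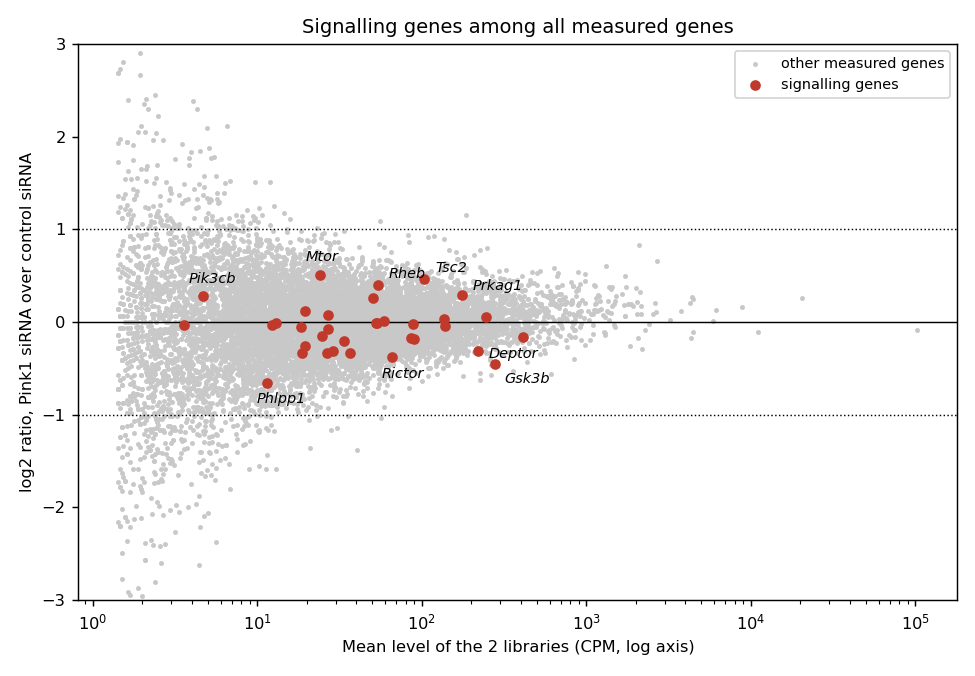
Log2 ratio (Pink1 siRNA over control siRNA) against the mean level of both libraries (CPM, log axis) for all measured genes in grey and the 34 signalling genes in red; 10 genes beyond 3 on the log2 scale are off the axis. The signalling genes lie inside the cloud, with Gsk3b and Deptor near its lower edge and Tsc2 and Mtor near its upper edge.

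FOXO factors bind DNA themselves, so the relay includes its own transcription factor, and the promoters of its genes were searched for the forkhead word GTAAACA and, for the lysosomal and lipid regulators downstream of mTORC1, for the E-box word CACGTG. Both strands were read over the 250 bases before each RefSeq transcription start (GRCm38.p6), where 35 of the 37 genes had 48 windows, and no window of a member held both words. GTAAACA was in 3 of the 48 windows, 1 of Akt1 and 2 of Mapkap1 that overlap each other, against 3.17% of all 32851 windows. CACGTG was in 1 window, that of Rheb, against 6.02% of all. The 3 promoters are shown with the word in capitals, in the direction of transcription, so that the match in Akt1 reads as its reverse complement. They lie at chr12:112674885-112675134 (minus strand), chr2:34406521-34406770 (plus) and chr5:24842362-24842611 (minus).
Akt1: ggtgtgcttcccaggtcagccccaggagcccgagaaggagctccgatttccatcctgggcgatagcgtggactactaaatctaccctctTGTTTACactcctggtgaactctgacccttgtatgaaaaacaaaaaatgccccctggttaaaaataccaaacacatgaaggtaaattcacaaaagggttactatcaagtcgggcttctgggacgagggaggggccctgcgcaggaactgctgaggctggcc
Mapkap1: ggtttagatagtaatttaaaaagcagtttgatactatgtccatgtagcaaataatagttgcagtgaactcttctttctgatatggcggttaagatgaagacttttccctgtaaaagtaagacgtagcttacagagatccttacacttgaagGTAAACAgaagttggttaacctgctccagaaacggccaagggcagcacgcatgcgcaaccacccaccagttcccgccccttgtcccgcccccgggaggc
Rheb: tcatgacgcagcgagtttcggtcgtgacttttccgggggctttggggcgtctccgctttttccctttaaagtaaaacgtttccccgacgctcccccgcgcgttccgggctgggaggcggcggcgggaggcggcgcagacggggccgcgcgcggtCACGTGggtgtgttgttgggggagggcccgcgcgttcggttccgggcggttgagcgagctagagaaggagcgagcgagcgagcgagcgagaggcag
Of these genes, Akt1 and Mapkap1 had ratios of 1.04 and 0.995, and Rheb had 1.32. A match to a word describes the sequence and is no evidence of binding.

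Genes around the relay were described from lists of related genes, with the same measures. For comparison, 51.1% of all measured genes had a log2 ratio above 0 and 48.9% below. By the 2-fold rule 1.63% were higher and 2.39% lower, and the widened interval lay above 1 for 2.09% and below 1 for 2.01%. Of 19 measured insulin and IGF receptor and adaptor genes, 13 had a ratio below 1 and the median log2 ratio was -0.14. Counting intervals lay below 1 for 8 (24.9% of all measured genes) and above 1 for 3 (26.2%). Insr, the insulin receptor gene, was level at 441 and 413 counts (ratio 0.937, 0.817 to 1.07), as was Irs1 at 698 and 630 (0.903, 0.809 to 1.01). Irs2, the other main receptor substrate, had 155 and 93 counts, a ratio of 0.600 (0.459 to 0.781). Cblb, a ubiquitin ligase gene, was the 1 gene of the list past the 2-fold rule, at 102 and 32 counts (ratio 0.314, 0.204 to 0.471, widened 0.0816 to 0.959). Sh2b1, an adaptor that favours receptor signalling, was higher at 360 and 513 counts (ratio 1.43).

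The inputs that tell mTORC1 about amino acids had a median log2 ratio of -0.07 over 27 measured genes, 13 above 0 and 14 below. Its lowest values were in inhibitors of mTORC1. Sesn2 and Sesn3 encode sestrins, stress-induced proteins that restrain mTORC1, and Depdc5 encodes a subunit of the GATOR1 complex that does the same. Sesn2 passed the 2-fold rule at 55 and 27 counts (ratio 0.491, 0.298 to 0.792), although its widened interval of 0.129 to 1.60 included 1. Depdc5 had 253 and 137 counts (ratio 0.542, widened 0.309 to 0.926) and Sesn3 724 and 424 (0.586, widened 0.393 to 0.863). In all, 3 of 583 genes of its level were as low as Sesn3. Sesn1 lay on the other side at 336 and 387 counts (ratio 1.15, 0.993 to 1.34), so the sestrins did not share a direction. Nor did the GATOR1 genes, since Nprl2 had 205 and 230 counts (ratio 1.12, 0.925 to 1.36) and Nprl3 647 and 673 (1.04, 0.932 to 1.16).

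Targets of mTORC1 and S6 kinase had the highest median of the lists, 0.14. A log2 ratio above 0 was found in 14 of 18 genes (51.1% of all measured genes). The counting interval lay above 1 for 11 (26.2% of all) and below 1 for 2 (24.9%). The widened interval lay above 1 for 1, Lpin1 (2.09% of all). None passed the 2-fold rule. These shares were not matched for level, and the interval of a deeply read gene can leave out 1 at a small ratio. In the highest twentieth of mean level the median log2 ratio of all genes was itself 0.09. Tfeb, the lysosomal regulator, had 40 and 73 counts (ratio 1.83, widened 0.590 to 6.37), Lpin1, a phosphatidate phosphatase gene, 546 and 865 (1.58, widened 1.11 to 2.29), and Srebf2, a regulator of cholesterol synthesis, 366 and 492 (1.34, widened 0.879 to 2.07). The 2 counting intervals below 1 were of 4E-BP genes, whose proteins repress translation: Eif4ebp1 had 2089 and 1878 counts (ratio 0.899, 0.844 to 0.957) and Eif4ebp2 had 2055 and 1564 (0.761, 0.712 to 0.813). Pdcd4, another translation repressor gene, had 3432 and 3687 counts (ratio 1.07, 1.03 to 1.13). Among 583 genes of similar level, 206 were as high as Pdcd4, against 3 for Lpin1. Ulk1, the autophagy kinase that mTORC1 and AMPK both phosphorylate, was level at 593 and 637 counts.

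AMPK's upstream kinases, partners and substrates had a median of -0.05 over 23 genes, 11 above 0 and 12 below, and none passed the 2-fold rule. The highest were a pair of genes for AMPK-related kinases that LKB1 also activates, Nuak2 at 70 and 133 counts (ratio 1.90, 1.41 to 2.58, widened 0.880 to 4.34) and Mark2 at 298 and 462 (1.55, widened 1.01 to 2.40). Other kinases of that family were spread, from Sik2 at 62 and 49 counts (ratio 0.790, 0.532 to 1.17) through Nuak1 (1.04), Sik1 (1.10) and Sik3 (1.13) to Mark3 (1.24, 1.11 to 1.38). Camkk1, a calcium-dependent kinase gene, was the lowest at 83 and 57 counts (ratio 0.687, 0.481 to 0.974). The AMPK substrate Acaca, which encodes an acetyl-CoA carboxylase, had 469 and 427 counts (ratio 0.911, 0.797 to 1.04), and Acacb had 65 and 53.

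FOXO target genes were split, with 9 of 21 above 0, 12 below and a median of -0.07. Among the lower were Sesn3, Irs2 and Fbxo32, an atrophy-linked ubiquitin ligase gene, which had 254 and 151 counts (ratio 0.595, 0.483 to 0.730). The highest of the list was Ddit4 (ratio 1.35). The related lists share some genes, Sesn3, Irs2 and Ddit4 among them. None of the 21 passed the 2-fold rule, while the widened interval lay below 1 for 2, Sesn3 and the cell death gene Bcl2l11 (1004 and 650 counts). Other PI3K, AKT and mTOR enzymes and partners also divided nearly evenly, 13 above 0 and 12 below with a median of 0.04. Sgk3, a kinase related to AKT, had 59 and 100 counts (ratio 1.70, 1.22 to 2.38), Pik3ip1, an inhibitor of PI3K, had 350 and 217 (0.620, 0.521 to 0.737), and Ddit4, a stress-induced inhibitor of mTORC1 also called REDD1, had 2438 and 3292 (1.35, 1.28 to 1.42). Widened intervals of all 3 included 1.

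**Figure D4:**
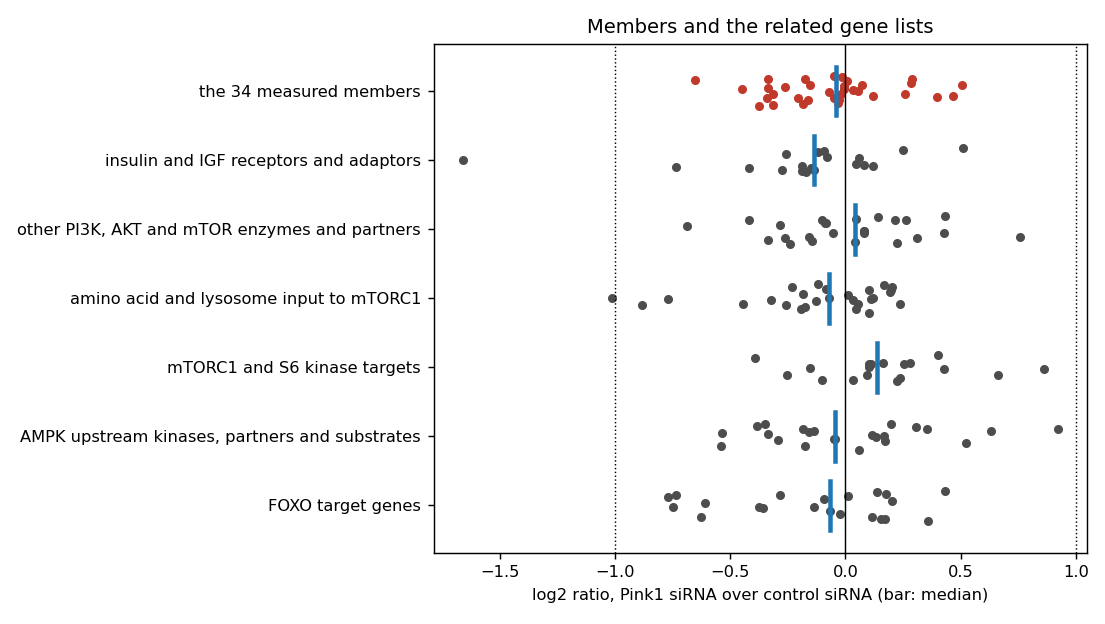
Log2 ratios (Pink1 siRNA over control siRNA) of the 34 measured members in red and of the measured genes of 6 related lists in black, 1 point per gene with vertical jitter; blue bars are medians and dotted lines mark 2-fold. The medians lie between -0.14 and 0.14, and Cblb at -1.66 and Sesn2 at -1.01 are the points beyond a dotted line.

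The values differed with sequence only weakly. Across the 34 measured members the log2 ratio had a Spearman rho of 0.29 with the GC content of the last 500 bases of the longest transcript and -0.28 with transcript length, against 0.08 and -0.12 across the 11082 measured genes with a transcript. These describe genes in the same 2 libraries, which are not independent replicates.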

How the data were processed

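Each of 2 libraries of 3′ tags stands for 1 group. The submitters' processing notes name bcl2fastq 2.20.0.422, Bowtie2, bedtools and build mm10; no source used here gives the annotation, the strand setting or the handling of multiply mapped reads. Values as deposited are raw read counts per gene symbol, judged from whole numbers with unequal totals.

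Counts were scaled with TMM (edgeR 4.0.16, R 4.3.3), and log2 ratios had 0.5 added. Genes with 40 or more summed counts were called measured. The 2-fold rule also asks that the exact conditional binomial (Clopper-Pearson) 95% interval leave out 1 (SciPy 1.17.1). The widened interval divides counts by the mean excess over binomial variance in the gene's twentieth of mean level. The rule was tested on data simulated with counting error only. Levels were not divided by transcript length, since tags come from transcript ends. Reads are not independent molecules.

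Genes named were all members, Pink1, markers, some fixed pathway genes, and from each related list the 3 largest log2 ratios and any gene past the rule. Foxo4, Sesn1, Nprl2, Nprl3, Bcl2l11, Pdcd4, Mark3, Nuak1, Sik1, Sik2, Sik3, Pkd1 and the other overlapping genes fall outside this and were chosen after their values were seen. One gene of a related list is not reported here. Members and lists were chosen with earlier results of these data known. Alternatives were total-count, DESeq2 1.42.0 and upper-quartile scaling, TMM without Rn45s, 5 added before the log, a minimum of 0 or 200 summed counts, thresholds of 1.5 and 4, no interval or the widened one, and, added after seeing the data, removal of a trend on GC content and length.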

Additional observations from a re-analysis of the deposited data

How the results depend on the processing

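The count of members past the 2-fold rule was 0 under every scaling, filter, added count and interval tried and at a ratio of 4. It was 1, Phlpp1, at a ratio of 1.5. The median log2 ratio of the members stayed below 0 in all settings, from -0.08 with total-count scaling to -0.03 with no filter. The median of all measured genes moved too, to -0.04 with total-count scaling and 0 with no filter. Log2 ratios above 0 were found in 11 measured members, in 9 with total-count scaling and in 14 after a trend on GC and length was taken out, a setting added after seeing the data. That setting moved the log2 ratios of Gsk3b to -0.37, Deptor to -0.23 and Pik3r1 to -0.09, beyond their counting intervals, with no change of direction. Changes of sign were limited to members within 0.03 of 0. The median of the amino acid list was above 0 with a minimum of 200 counts (0.01), and that of the AMPK list with no filter (0.01), with that minimum (0.06) and without the trend (0.02), while that of the other PI3K and mTOR enzymes was below 0 with total-count scaling (-0.0015). Depth limits Inpp5d, Prkaa2, Foxo3, Pik3cb and Rps6kb2 most. No paired analysis was possible because each group has 1 library and the labels give no replicate numbers.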
